A study of Homo sapiens with 6 samples.

Results

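The mRNAs of 30 genes encoding proteins of the small (40S) ribosomal subunit, among them FAU and the ubiquitin fusion gene RPS27A, were examined for LARP1 binding and for mRNA level in HEK293T, a cell line of human embryonic kidney origin with the SV40 large T antigen. The members were chosen by gene name and not by a cutoff on measured values, but with earlier results of these data known. All 30 genes were present in the mRNA-seq table, with 45 of its 38438 transcripts. In the lists of LARP1 binding sites these mRNAs had 24 of 3948 lines in growing cells and 59 of 3947 lines in mTOR-inactive cells. A site listed on several isoforms was counted once per gene, which left 17 and 42 distinct sites.

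LARP1 binding was mapped by PAR-CLIP, in which cells build 4-thiouridine into their RNA, ultraviolet light crosslinks it to the bound protein, and the crosslinks are read out as T-to-C conversions. Growing cells and cells with mTOR inactivated by the kinase inhibitor PP242 (2.5 µM) were compared. The cells for PAR-CLIP took up 4-thiouridine (100 µM) over 14 hr before irradiation with 150 mJ/cm2, and there was 1 library per condition, so that differences in binding between the conditions have no replicate check. The mRNA-seq comprised 2 libraries per condition from the same cell line, for which no 4-thiouridine treatment is given.

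Ribosomal protein genes are transcribed at high rates, and most of their mRNAs begin with a run of pyrimidines, the 5’ terminal oligopyrimidine (TOP) tract. The translation of TOP mRNAs falls when mTOR, a kinase that senses nutrients and growth factors, is inhibited. LARP1 is an RNA-binding protein that has been linked to this control, and where it sits on an mRNA was the question of the PAR-CLIP experiment.

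Site heights are given as deposited, as reads relative to all mapped reads (RPM), and mRNA levels as reads scaled to transcript length and mapped reads (RPKM). The sum of RPM over all listed lines was 572790 in growing and 568210 in mTOR-inactive cells, and a site listed on several transcripts enters it several times. Counted once per gene, the sites on mRNAs summed to 265459 and 287262 RPM. The number of reads behind a site is unknown. Of 7 genes used as markers of this line, 5 were above 1 RPKM in every mRNA-seq library, led by VIM at 210 to 239 RPKM. LHX1 was at 0.660 to 1.04 RPKM and PAX2 at 0.116 to 0.136 RPKM. Of 4 markers of other cell types, 3 were below 0.1 RPKM in every library and COL1A1 was at 1.76 to 1.84 RPKM.

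The sequences of sites on 3 genes are shown, because their deposited positions could be placed on a transcript of GRCh37 and because these genes hold 3 of the 6 5’UTR sites of at least 1 RPM. For RPS2, RPS6 and RPS12 the 5’UTR used by the study matched that of the GENCODE transcript, with 1 additional base at the start in RPS6. Capitals mark the longest run of pyrimidines in each site. The 5’UTR sites of RPS6 (nt 17 to 35, chr9:19380201-19380219, minus strand, exon 1), RPS12 (nt 56 to 70, chr6:133135881-133135895, plus strand, exon 2) and RPS2 (nt 12 to 26, chr16:2014808-2014816 and chr16:2014624-2014629, minus strand, exons 1 and 2) were:
RPS6 5’UTR: CCTCggaggcgttcagctg
RPS12 5’UTR: attcaaCTTCacccg
RPS2 5’UTR: acaaaacaCCaaatg

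The longest pyrimidine run in these 3 sites was 4 nt in RPS6, 4 nt in RPS12 and 2 nt in RPS2. The 5’UTRs of RPS2, RPS6 and RPS12 as used by the study each begin with a run of 10 pyrimidines, and in all 3 genes the LARP1 site began after this run. Pyrimidines made up 52.6% of the RPS6 site and 61.0% of its annotated 5’UTR, 66.7% of the RPS12 site and 57.3% of its 5’UTR, and 33.3% of the RPS2 site and 60.9% of its 5’UTR. The gap between site and start codon was 7 nt in RPS6 and 12 nt in RPS12. The RPS2 site ran through the start codon and held a single T. The same 15 bases occur once in the GENCODE transcript of MED14, a Mediator subunit, and the same value of 4.08 RPM is listed on MED14, so that reads from the 2 mRNAs cannot be told apart.

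Sites in coding sequences of the same genes are shown for comparison with the 5’UTR sites. These are the RPS6 site at nt 46 to 67 (chr9:19380188-19380190 and chr9:19379598-19379616, exons 1 and 2), the RPS12 site at nt 300 to 321 (chr6:133137686-133137702 and chr6:133138099-133138103, exons 4 and 5) and the RPS2 sites at nt 264 to 281 (chr16:2014286-2014303, exon 3), nt 323 to 341 (chr16:2013207-2013225, exon 4) and nt 409 to 426 (chr16:2012883-2012900, exon 5), on the strands given above:
RPS6 CDS: aagctgaacaTCTCCTTCCCag
RPS12 CDS: aaatcaaCCTaattaaggttga
RPS2 CDS, nt 264 to 281: atctaTCTCTTCTCCCTg
RPS2 CDS, nt 323 to 341: CTCTCTCaaggatgaggtt
RPS2 CDS, nt 409 to 426: CTatcggggactacaatg

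The RPS6 site in the coding sequence began at the first base after the start codon and held a run of 10 pyrimidines, longer than the run in the 5’UTR site of the same mRNA. The RPS2 site at nt 264 to 281, with 16.0 RPM, held a run of 12 pyrimidines, that at nt 323 to 341, with 424 RPM, a run of 7, and that at nt 409 to 426, with 107 RPM, no run longer than 2. The RPS12 site in the coding sequence, with 1679 RPM in mTOR-inactive cells, had no pyrimidine run longer than 3 nt. RNase T1, which was used to digest the RNA, cleaves after G, and of the 8 placed sites 6 were preceded by G and 6 ended in G.

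Under growing conditions 13 of the 30 genes (43.3%) had a LARP1 site of at least 1 RPM, against 1.74% of 10991 mRNA genes of at least 1 RPKM and 13.6% of 390 mRNA genes of at least 100 RPKM. Under mTOR-inactive conditions 23 of the 30 genes (76.7%) had such a site, against 3.78% and 33.1% of the same genes. Of the members, 29 were at or above 100 RPKM, and 13 and 23 of these were bound. The mRNAs of the large ribosomal subunit, measured in the same way, had a site in 14 of 51 genes in growing and 31 of 51 genes in mTOR-inactive cells. The large subunit genes were taken by gene name without a limit on mRNA level, and 84 of their 86 transcripts reached 1 RPKM. Of 14 genes for 40S assembly factors, which act on the maturing subunit and are not part of it, 0 and 2 had a site. These 14 mRNAs were at 6.73 to 76.4 RPKM, all below 100 RPKM, so that the 2 lists also differ in mRNA level. The share of bound small subunit genes was above that of mRNAs of at least 100 RPKM in both libraries.

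**Figure D1:**
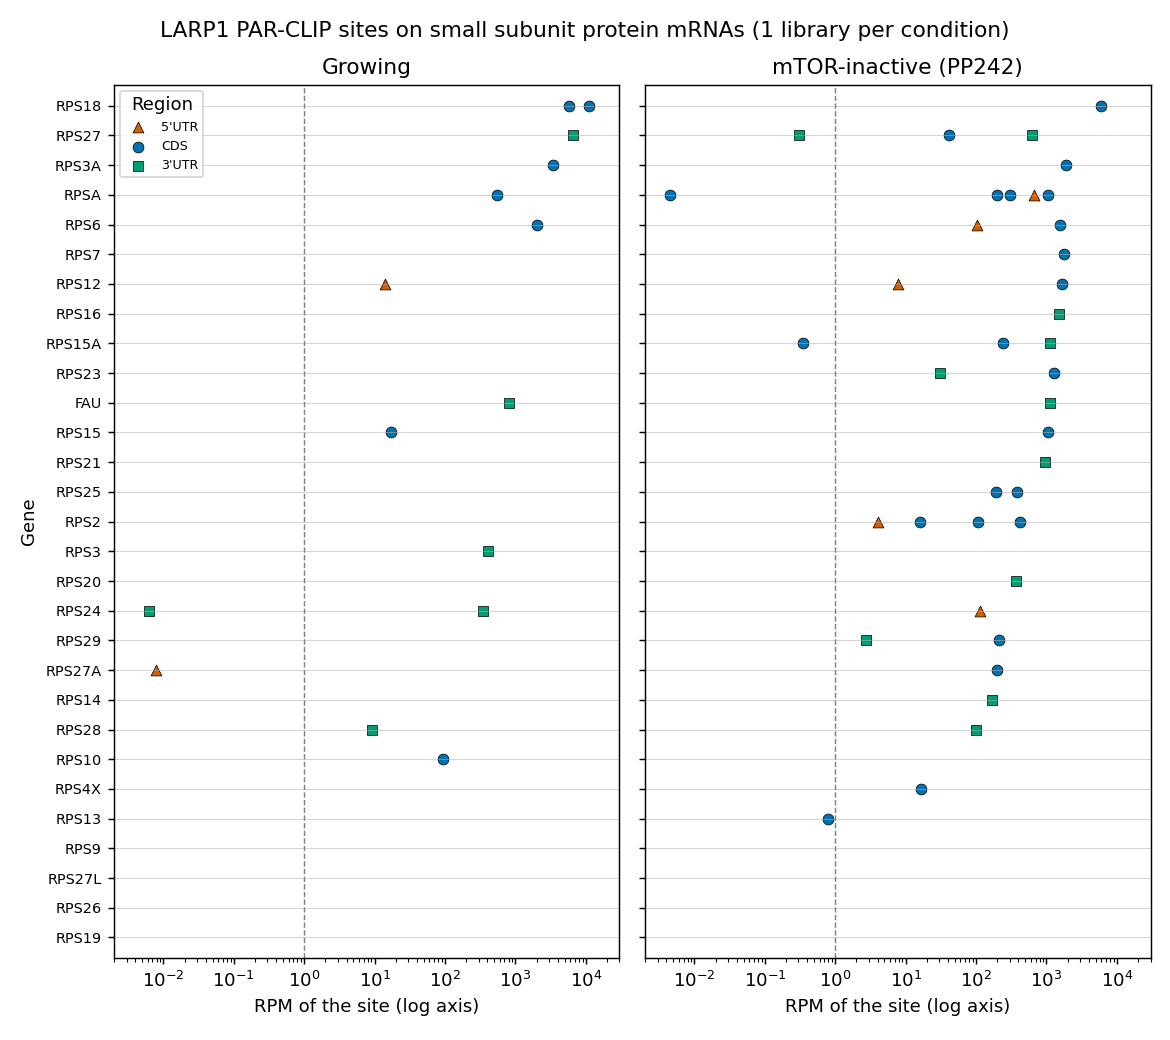
LARP1 sites on 29 of the 30 small subunit protein genes, with the RPM of each site on a log axis, in growing (left) and mTOR-inactive cells (right), 1 library each. Triangles, circles and squares stand for 5’UTR, CDS and 3’UTR sites, the dashed line is 1 RPM, and 15 sites in growing and 39 in mTOR-inactive cells are drawn.

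Summed RPM on the 30 genes was 31806 in growing and 25835 in mTOR-inactive cells, which was 12.0% and 8.99% of the RPM on all mRNAs. More of these genes were bound in mTOR-inactive cells although their summed RPM was lower. The rise in bound genes was not particular to them. Among all 10991 mRNA genes of at least 1 RPKM, 191 were bound in growing and 415 in mTOR-inactive cells. RPS18, a protein of the head of the subunit, alone held 53.3% of the RPM of these mRNAs in growing cells, and RPS18, RPS27, RPS3A and RPS6 together held 91.3%. Under mTOR-inactive conditions RPS18 held 22.7%, and the first 4 genes, RPS18, RPSA, RPS3A and RPS7, held 45.5%. The RPM on RPS18 was 16943 in growing and 5862 in mTOR-inactive cells. Without RPS18 the summed RPM was higher in mTOR-inactive cells, so that the lower sum rested on this gene. Member sites of at least 1000 RPM numbered 5 in growing and 11 in mTOR-inactive cells. Those of at least 1 RPM numbered 15 and 38, against 245 and 547 sites on all mRNAs. The mean over all member sites was 1871 and 615 RPM.

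By region, the 5’UTR sites summed to 15.2 RPM (0.0477% of the RPM of these mRNAs) in growing cells and to 917 RPM (3.55%) in mTOR-inactive cells. They covered 48 and 121 nt, and the mean was 5.06 and 153 RPM per site. The coding sequence held 72.4% and 71.5%, and the 3’UTR 27.5% and 25.0%. The share in 5’UTRs was higher in mTOR-inactive cells, and the coding sequence held most of the RPM under both. Large subunit mRNAs had no 5’UTR site in growing cells and 8.63% of their RPM in 5’UTRs in mTOR-inactive cells. On all other mRNAs the 5’UTR share was 5.53% and 2.50%. Without RPS18 the coding sequence share of the small subunit mRNAs in growing cells was 41.0% and the 3’UTR share 58.9%, so that the order of the 2 regions in growing cells rested on this gene.

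The deposited lists also hold a T-to-C column, which is a fixed multiple of RPM in most sites (25.8 per RPM in the growing and 28.3 in the mTOR-inactive library). What it measures is not described, and it is given here as a percentage of this multiple. It was below 10% in 3 of 15 member sites of at least 1 RPM in growing cells and in 3 of 38 in mTOR-inactive cells. Among all mRNA sites of at least 1 RPM it was below 10% in 28.2% and 17.6%. The low sites of the small subunit mRNAs held 41.0% of their RPM in growing and 3.22% in mTOR-inactive cells. They were the second RPS18 site, the RPS27 3’UTR site and the RPSA coding site in growing cells, and the 5’UTR sites of RPS6 and RPS24 and the RPS27 3’UTR site in mTOR-inactive cells. Without the sites below 10%, 11 genes in growing and 22 genes in mTOR-inactive cells had a site, and in growing cells the coding sequence held 88.7% and the 3’UTR 11.2% of the RPM. The summed RPM without these sites was higher in mTOR-inactive than in growing cells.

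A 5’UTR site of at least 1 RPM was listed on 2 genes in growing cells and on 6 in mTOR-inactive cells, against 0.0910% and 0.273% of the 10991 mRNA genes of at least 1 RPKM, and 1.03% and 3.85% of those of at least 100 RPKM. RPSA, a component of the 40S subunit also known as the laminin receptor precursor, had the highest of these sites, with 673 RPM at nt 53 to 86 in mTOR-inactive cells, which was 73.4% of the 5’UTR sum. No 5’UTR site was listed on RPSA in growing cells. RPS24, a gene mutated in Diamond-Blackfan anemia, a congenital red cell disorder, had 114 RPM at nt 106 to 126 in mTOR-inactive cells, listed on 6 isoforms, with a T-to-C value of 0.905%. RPS6, the classical substrate of S6 kinase, had 105 RPM at nt 17 to 35 in mTOR-inactive cells, with a T-to-C value of 0.202%. None of these 3 sites was listed in growing cells.

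The other 5’UTR sites were lower. RPS12, a protein of the head of the subunit, had 13.9 RPM at nt 56 to 70 in growing and 7.84 RPM in mTOR-inactive cells. RPS2, which lines the mRNA entry side of the subunit, had 4.08 RPM at nt 12 to 26 in mTOR-inactive cells. RPS27A had a 5’UTR site of 0.0078 RPM in growing cells, far below 1 RPM. The RPS12 site was already listed in growing cells, and its RPM was lower in mTOR-inactive cells. Leaving out the 2 sites with low T-to-C values left 4 5’UTR sites with 698 RPM, 2.79% of the RPM with a T-to-C value of at least 10%.

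Of the 25 genes with at least 1 RPM in 1 condition, 16 (64.0%) had at least 2-fold more RPM in mTOR-inactive cells and 5 (20.0%) at least 2-fold less (3 without the sites of low T-to-C value), against 65.2% and 32.4% of 635 mRNA genes counted in the same way. The share with more RPM was near that of all mRNAs. Large subunit mRNAs gave 23 and 6 of 34 genes. In 11 of the 16 genes no site at all was listed in growing cells. These 11 genes had between 16.7 and 1750 RPM and together 34.0% of the RPM of the small subunit mRNAs in mTOR-inactive cells.

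**Figure D2:**
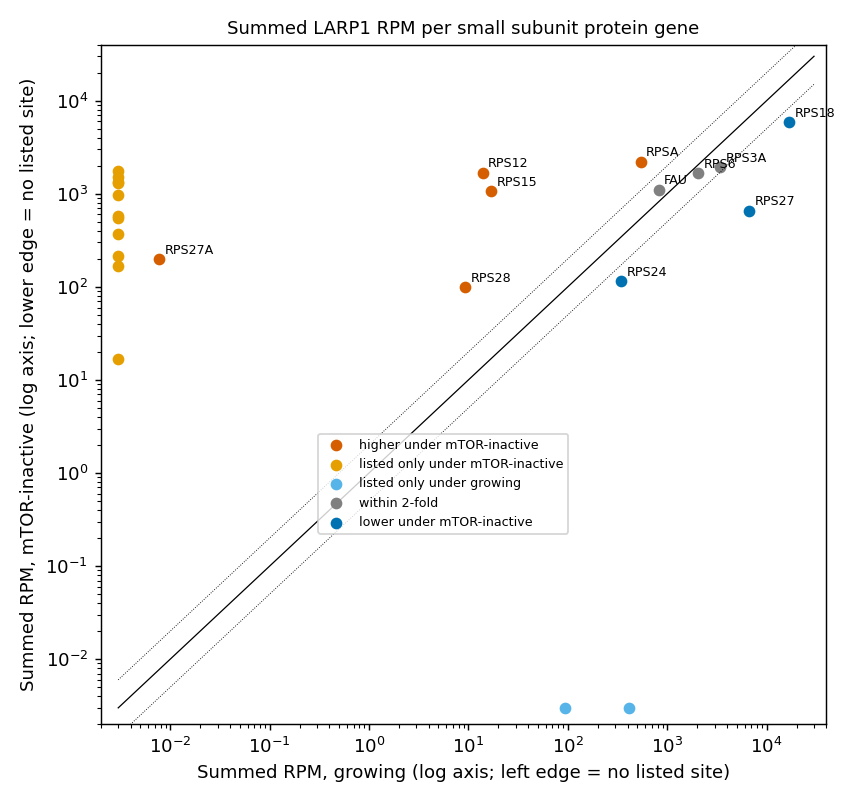
Summed LARP1 RPM per gene under growing (horizontal) and mTOR-inactive conditions (vertical), both on log axes, for 24 of the 25 genes with at least 1 RPM in 1 condition. The solid line marks equal RPM, the dotted lines a 2-fold difference, and genes with no listed site in 1 condition are drawn at the left edge (11 genes) or the lower edge (2 genes).

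Among proteins at the mRNA channel and the decoding center, RPS23, which forms part of the decoding center, had no site in growing cells and 1266 RPM in the coding sequence (nt 476 to 504) and 31.0 RPM in the 3’UTR in mTOR-inactive cells. The first of these was the highest member site relative to mRNA level, with 6413 RPM per 1000 RPKM in the deposited ratio. RPS2 had 424, 107 and 16.0 RPM at 3 coding sites and no site in growing cells. RPS15, which lies near the decoding center, had the same coding site at nt 481 to 497 under both conditions, with 17.0 RPM in growing and 1059 RPM in mTOR-inactive cells, 62.5-fold more. RPS3, at the mRNA entry, went the other way, with 414 RPM in the 3’UTR (nt 841 to 858) in growing cells and no site in mTOR-inactive cells. RPS9, a protein of the body of the subunit, and RPS26, at the mRNA exit, had no site in either list.

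Among proteins of the head, RPS18 had 11087 RPM at nt 76 to 105 and 5856 RPM at nt 173 to 196 in growing cells, both in the coding sequence. Under mTOR-inactive conditions only the first was listed, with 5862 RPM, and the summed RPM was 0.346 times that in growing cells. The second RPS18 site had a T-to-C value of 0.965%. RPS12 had a coding site of 1679 RPM only in mTOR-inactive cells, and its summed RPM was 121-fold higher there. RPS16 had 1525 RPM in the 3’UTR, RPS20 had 368 RPM in the 3’UTR and RPS25 had 386 and 195 RPM at 2 coding sites, all only in mTOR-inactive cells.

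RPS29, a zinc-binding protein of the head, had 210 RPM in the coding sequence in mTOR-inactive cells, and a 3’UTR site of 2.76 RPM with the same values on RPL32. RPS10 had 94.5 RPM in the coding sequence in growing cells and no site in mTOR-inactive cells, and the same values were listed on the readthrough transcript RPS10-NUDT3. RPS28 had 9.27 RPM at nt 349 to 363 in growing and 98.8 RPM at nt 274 to 292 in mTOR-inactive cells, both in the 3’UTR. RPS19, the gene most often mutated in Diamond-Blackfan anemia, had no site in either list.

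Among proteins of the platform and body, RPS3A had 3396 RPM at nt 135 to 158 in growing cells and 1919 RPM at nt 688 to 711 in mTOR-inactive cells, both in the coding sequence and at different positions. The RPM of the first was also listed on the noncoding transcript NR_047688.1. RPSA had 539 RPM at nt 617 to 640 in growing cells and coding sites of 198, 1045 and 303 RPM at nt 151 to 173, 220 to 239 and 391 to 414 in mTOR-inactive cells. Its sum was 4.12-fold higher in mTOR-inactive cells, and its coding sites were also listed on the pseudogene RPSAP9. RPS7 had a coding site of 1750 RPM, RPS14, which is lost in the 5q- syndrome, a 3’UTR site of 166 RPM, and RPS21 a 3’UTR site of 958 RPM, each only in mTOR-inactive cells.

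RPS15A had 1109 RPM in the 3’UTR and 242 RPM at its main coding site in mTOR-inactive cells and no site in growing cells. RPS4X had 16.7 RPM in the coding sequence in mTOR-inactive cells, low for an mRNA of 1910 RPKM. RPS13 was listed at 0.799 RPM, below the limit of 1 RPM. RPS6 had its coding site at nt 46 to 67 under both conditions, with 2045 RPM in growing and 1547 RPM in mTOR-inactive cells. The T-to-C value of this RPS6 site was 100.0% in growing and 43.1% in mTOR-inactive cells. RPS24 had 345 RPM in the 3’UTR in growing cells and its 5’UTR site of 114 RPM in mTOR-inactive cells, with no site in common.

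Among the remaining genes, RPS27, a zinc finger protein, had 6648 RPM at nt 317 to 338 of the 3’UTR in growing and 613 RPM at the same site in mTOR-inactive cells, with T-to-C values of 0.728% and 0.173%. A coding site of 41.1 RPM was listed on RPS27 in mTOR-inactive cells. RPS27L, a p53-inducible paralog of RPS27, had no site and the lowest mRNA level of the list. FAU, which encodes RPS30 fused to a ubiquitin-like protein, had 823 RPM at nt 537 to 557 of the 3’UTR in growing and 1107 RPM in mTOR-inactive cells. RPS27A, which encodes a ribosomal protein fused to ubiquitin, had 198 RPM in the coding sequence in mTOR-inactive cells.

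Sites at the same position under both conditions numbered 8, all with identical ends. They were 47.1% of the 17 sites in growing and 19.0% of the 42 sites in mTOR-inactive cells. They held 66.5% and 41.3% of the RPM. RPM at the shared sites was higher in mTOR-inactive cells in 3 of the 8, among them RPS15 and FAU, and lower in 5. The lowest ratio was at the RPS27 3’UTR site, with 0.0922 times the growing value, and the RPS12 5’UTR, RPS18 and RPS6 sites lay between 0.529 and 0.756 times. Of 11 genes with at least 1 RPM under both conditions, RPS24, RPS28, RPS3A and RPSA shared no site.

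**Figure D3:**
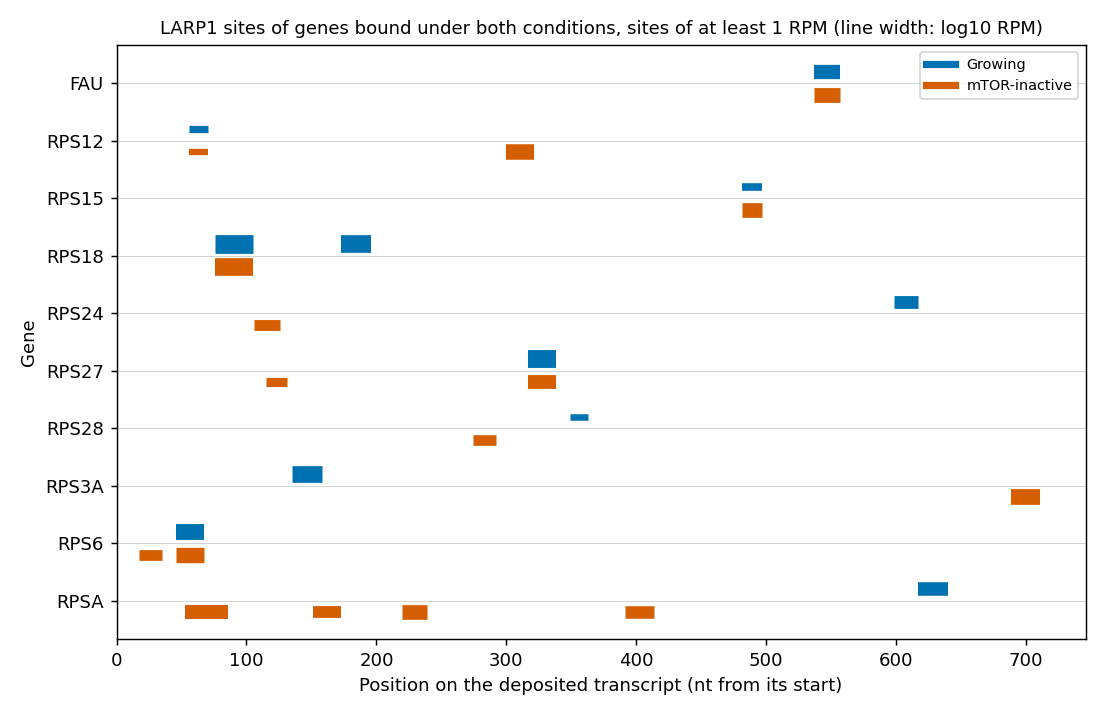
Positions of LARP1 sites of at least 1 RPM on the deposited transcripts of 10 of the 11 genes bound under both conditions, in nt from the transcript start, with growing above mTOR-inactive for each gene and line width by log10 RPM. RPS24, RPS28, RPS3A and RPSA have no position in common, whereas the sites of FAU and RPS15 sit at the same place.

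Among the bound genes the level of the main transcript, the one with the highest mean RPKM, ranged from 271 to 2128 RPKM (median 1029) in growing and from 194 to 3664 RPKM (median 886) in mTOR-inactive cells. The median of the genes without such a site was lower, at 708 RPKM over 17 genes in growing and 405 RPKM over 7 genes in mTOR-inactive cells. Within the bound genes, Spearman's rho between level and RPM was 0.42 over 13 genes and 0.25 over 23 genes, given as a description of genes that share a library. RPS2 was the most abundant mRNA of the list, at 3664 RPKM, and had no site in growing cells. RPS23, at 194 RPKM, had the highest ratio of RPM to RPKM in mTOR-inactive cells. The genes without a site of at least 1 RPM in mTOR-inactive cells ranged from 24.4 RPKM (RPS27L) to 949 RPKM (RPS19).

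The mRNA levels of the members spanned a wide range and were close between libraries. RPS2 was at 3720 and 3597 RPKM in growing and 3677 and 3660 RPKM in mTOR-inactive cells. RPS18 was at 2096 and 2081 RPKM in growing and 2198 and 2139 RPKM in mTOR-inactive cells. RPS4X was at 1892 and 1868 RPKM in growing and 1948 and 1932 RPKM in mTOR-inactive cells. RPS2 libraries overlapped between conditions, while both mTOR-inactive libraries were the higher ones for RPS18 and RPS4X.

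RPS6 was at 1719 and 1724 RPKM in growing and 1787 and 1770 RPKM in mTOR-inactive cells, without overlap. RPS27L was at 23.6 and 26.4 RPKM in growing and 23.4 and 24.0 RPKM in mTOR-inactive cells, and the libraries overlapped. The other main transcripts had mean levels between RPS23 (194 RPKM) and RPS27 (1378 RPKM), with RPS24, RPS27A, RPS20 and RPS26 at 271, 270, 268 and 290 RPKM. RPS24, RPS27A and RPS20 differed from each other by less than the spread between the libraries of RPS24.

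**Figure D4:**
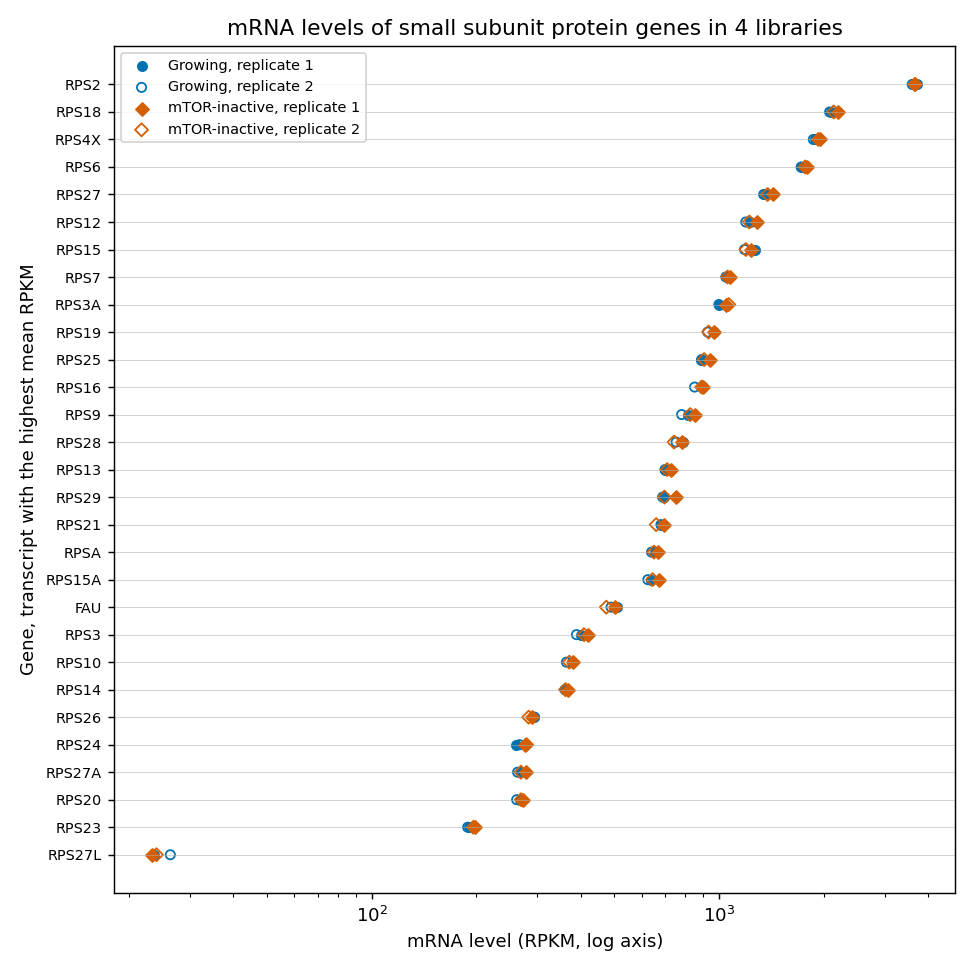
mRNA level (RPKM, log axis) of the main transcript of 29 of the 30 genes in the 2 growing (circles) and 2 mTOR-inactive libraries (diamonds), with replicate 1 filled and replicate 2 open. Levels run from about 24.4 RPKM for RPS27L to 3664 RPKM for RPS2, and the 4 libraries lie close together for each gene.

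Whether mTOR inactivation changed these mRNA levels was tested with limma on log2(RPKM + 1) over the 21014 transcripts whose mean reached 1 RPKM, and p-values were adjusted over all of them by Benjamini-Hochberg. Of the 45 member transcripts, 1 passed the threshold of 0.05 and was higher and 0 were lower, against 9.93% of all transcripts tested, 3.48% higher and 6.45% lower. At an unadjusted p below 0.05, 16 of the 45 differed, against 27.9% of all transcripts tested. The transcript that passed was NM_033022.3 of RPS24, at 220 and 220 RPKM in growing and 232 and 235 RPKM in mTOR-inactive cells, a log2 change of 0.09 ± 0.02 (SE, 2 libraries per condition) with an adjusted p of 0.048. The call was lost with a pseudocount of 5 (limma adjusted p 0.0505) or without the filter on low values (0.139). Without the filter only 57 transcripts over all were called higher and 63 lower. When single libraries were left out, the log2 change of NM_033022.3 lay between 0.079 and 0.097. Such fits leave 1 library in 1 condition, so that no test value is given for them. The other 5 RPS24 transcripts had adjusted p values of 0.071 to 0.092 by limma.

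The members' changes were small and mostly upward in value. Their median log2 change was 0.05, against -0.0013 over all transcripts tested, and 36 of 45 had a positive value. The pooled SD of the members' median log2 level between replicates was 0.05. It describes library medians and is not the spread of the median change by transcript. By transcript, the members' median difference of replicate 1 minus replicate 2 was 0.018 in growing and 0.037 in mTOR-inactive cells. Under mTOR-inactive conditions the libraries of 26 member transcripts did not overlap with the growing ones and were higher, and those of 1 were lower, against 28.5% and 30.0% of all transcripts. Isoforms of a gene share reads and are not independent.

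By main transcript, the 3 genes with the highest log2 change were RPS3A, RPS24 and RPS9. RPS3A was at 1002 and 999 RPKM in growing and 1046 and 1067 RPKM in mTOR-inactive cells, a log2 change of 0.08 ± 0.02 (SE; limma adjusted p 0.0575). The main transcript of RPS24 was at 260 and 267 RPKM in growing and 276 and 280 RPKM in mTOR-inactive cells, a log2 change of 0.08 ± 0.02 (SE; limma adjusted p 0.085). RPS9 was at 812 and 781 RPKM in growing and 851 and 826 RPKM in mTOR-inactive cells, a log2 change of 0.07 ± 0.03 (SE; limma adjusted p 0.139). Both mTOR-inactive libraries were above both growing ones in all 3 genes, and in none did the main transcript pass the test. Without growing replicate 2 the log2 change of RPS9 was 0.046.

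The 3 genes with the lowest log2 change were RPS27L, RPS26 and FAU. RPS27L had a log2 change of -0.07 ± 0.05 (SE; limma adjusted p 0.432). RPS26 was at 294 and 294 RPKM in growing and 289 and 283 RPKM in mTOR-inactive cells, a log2 change of -0.04 ± 0.02 (SE; limma adjusted p 0.272). FAU was at 508 and 489 RPKM in growing and 502 and 474 RPKM in mTOR-inactive cells, a log2 change of -0.03 ± 0.03 (SE; limma adjusted p 0.587). The libraries of RPS26 did not overlap, and those of RPS27L and FAU did. Without mTOR-inactive replicate 2 the log2 change of RPS26 was -0.0245, and the values of RPS27L and FAU turned positive without growing replicate 2 and mTOR-inactive replicate 2, respectively.

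**Figure D5:**
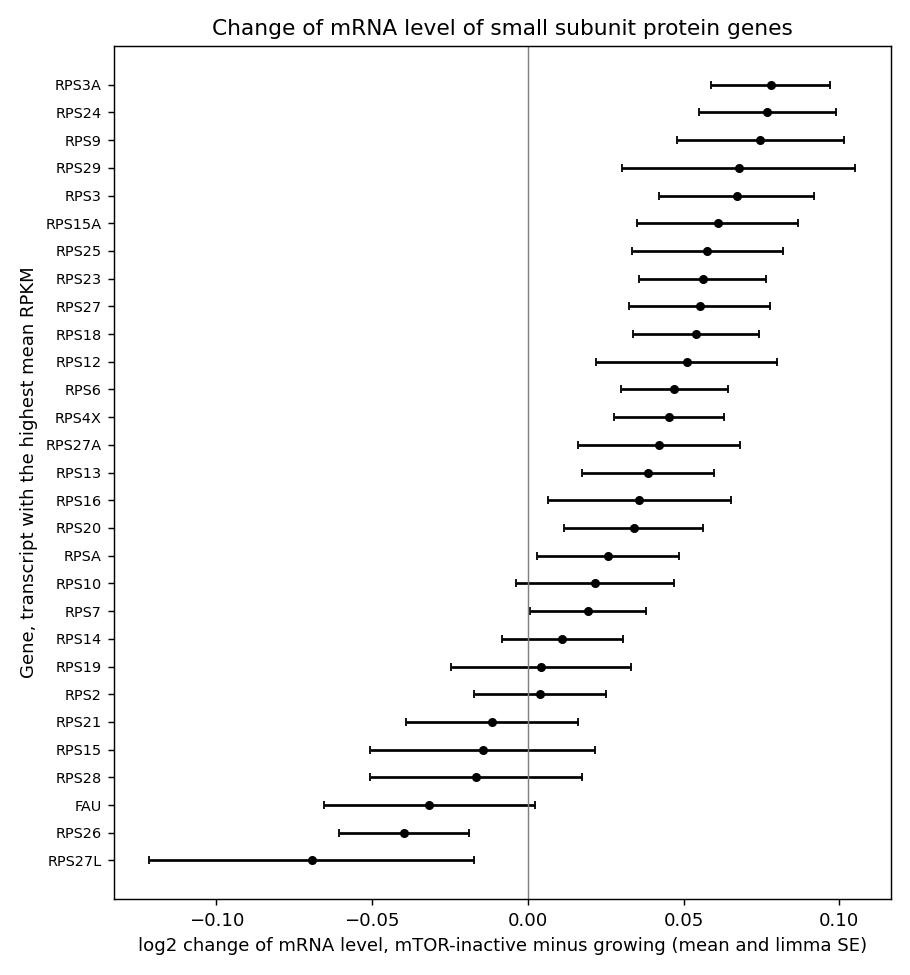
Log2 change of mRNA level, mTOR-inactive minus growing, of the main transcript of 29 of the 30 genes, with bars for the limma SE (2 libraries per condition). Values lie between -0.07 for RPS27L and 0.08 for RPS3A, and 23 of the 29 are above 0.

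In the 3 genes named next, picked after the values were seen, LARP1 RPM differed more than mRNA level. The RPM differences come from 1 library per condition and have no error. In 4 other genes the summed RPM stayed within 2-fold. Whether mRNA level accounts for differences in RPM was not tested. RPS15, with 62.5-fold more RPM at the same site, had a log2 change of mRNA level of -0.01 ± 0.04 (SE; limma adjusted p 0.829), and RPS12, with 121-fold more summed RPM, one of 0.05 ± 0.03 (SE; limma adjusted p 0.306). RPS27, with less RPM, had a log2 change of mRNA level of 0.06 ± 0.02 (SE; limma adjusted p 0.179). Its 3’UTR site had low T-to-C values, 0.728% in growing and 0.173% in mTOR-inactive cells. Among 84 transcripts of large subunit proteins, 1 passed the test and was higher, and their median log2 change was 0.03. Of 17 transcripts of 40S assembly factors, 0 were higher and 3 lower.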

How the data were processed

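LARP1 PAR-CLIP (1 library per condition) and mRNA-seq (2 libraries per condition) of HEK293T cells were used. The authors removed linkers, mapped reads to the GRCh37 transcriptome with Bowtie, clustered and smoothed PAR-CLIP reads, kept clusters with T-to-C conversions and deposited RPM per site. They also deposited the ratio of RPM to RPKM, region marks and a T-to-C column, treated as a score because its meaning is not given in the sources used here. The authors deposited RPKM per transcript from perfect matches, with reads on several loci divided evenly, which links gene copies and isoforms with each other. RPKM and RPM do not give read numbers.

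Of 39711 lines of the mRNA-seq table, 1273 repeats were dropped. RefSeq accessions supplied a name for 2860 of the 5989 unnamed transcripts. A site was counted once per condition, gene and pair of values. Its region and position are those on the transcript of highest mean RPKM where it was listed there, else on the first transcript listing it. Among the sites named above, the latter applied to the 3’UTR sites of RPS3 and RPS29 and the 5’UTR site of RPS27A. Bound means at least 1 RPM, and more or less means at least 2-fold. For mRNA levels, limma 3.58.1 (lmFit, eBayes with trend; R 4.3.3) was run on log2(RPKM + 1), which understates changes of low transcripts. This step was first tested on simulated levels. Replicates are separate libraries, and nothing says that they came from separate cultures. Python 3.11.15 with pandas 2.3.3, scipy 1.17.1 and matplotlib 3.10.9 served for the rest.

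Sites were placed on GENCODE transcripts (v44, lifted to GRCh37) where the start of the deposited transcript could be compared. Other site sequences are not shown, because the deposited versions of the RefSeq transcripts were not used here. Of the members, 29 were named, and 1 was counted in the totals and is not reported here singly. Of the others, single sites from 100 RPM and all 5’UTR sites from 1 RPM were given, and test values were printed for called transcripts and the 3 highest and 3 lowest changes; other values were chosen after they were seen. The members and lists were chosen with earlier results of these data known. Alternatives were other pseudocounts, filters, scaling, a replicate block, leaving out libraries, 1 transcript per gene, and other rules for RPM, T-to-C values, copies and overlap.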

Additional observations from a re-analysis of the deposited data

How the results depend on the processing

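The count of member transcripts with a higher mRNA level was 1. It was 0 with a pseudocount of 5, without the filter on low values and with 1 transcript per gene. Over all 21014 transcripts, 731 were higher and 1356 lower, and with a pseudocount of 5 these were 727 and 1353. Without the filter only 57 and 63 of 38438 transcripts were called, so that the count of 0 there came with a general loss of calls. Leaving out a library leaves 1 library in 1 condition, and calls from such fits are not given. With a replicate block the count of higher member transcripts was 3 (RPS24, RPS3A with an adjusted p of 0.037 and RPS9 with 0.036, limma). Over all 21014 transcripts 716 were then higher and 1419 lower. No label says that the replicate numbers pair the libraries, and the deviations correlated with r = 0.04 over all transcripts. Among the member transcripts replicate 1 was above replicate 2 in 36 of 45 in growing and in 37 of 45 in mTOR-inactive cells, so that most of their deviations ran upward in both. The 45 include isoforms that share reads. Over all transcripts the median of replicate 1 minus replicate 2 was -0.0010 in growing and -0.0077 in mTOR-inactive cells. The members' median log2 change between conditions lay between 0.02 and 0.06 when single libraries were left out. When single libraries were left out, the log2 change of RPS27L lay between -0.15 (without growing replicate 1) and 0.0077 (without growing replicate 2), and that of FAU between -0.073 (without mTOR-inactive replicate 1) and 0.0094 (without mTOR-inactive replicate 2), so that both reversed, and the cause was not tested. The coding sequence share in growing cells was 58.5% and the 3’UTR share 41.5% with RPM normalized to RPKM, 88.7% and 11.2% with T-to-C values of at least 10%, and 41.0% and 58.9% without RPS18. In mTOR-inactive cells these shares were 63.7% and 31.6% with RPM normalized to RPKM, and 63.1% and 32.3% without RPS18. A share was taken to have moved from 5 percentage points on. The number of genes with less RPM was 3 with T-to-C values of at least 10% and 3 with a 5-fold difference, fewer sites or a stricter rule entering by construction. The 5’UTR share in mTOR-inactive cells lay between 2.79% and 7.04% over the alternatives, the latter with every listed line, where isoforms of RPS24 and RPSA are counted repeatedly. Counts of bound genes and of shared sites stayed within 1.5 times under the alternatives tried. With 1 PAR-CLIP library per condition and unknown read numbers, no error can be given for a site, and a gene without a listed site may lie below the limit of detection.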
